A study of Bos taurus with 16 samples.

Results

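Chaperones and protein folding enzymes were taken as every array feature whose listed gene symbol begins with HSPA, HSPB, HSPD, HSPE or HSPH and a digit, with HSP90, DNAJ or PDIA and a digit, or names a subunit of the chaperonin CCT, calreticulin (CALR) or calnexin (CANX). There were 52 such features among the 8448 of the array, of which 5693 carry a listed gene, and they stand for 42 listed entries of the gene table. A feature is a spotted cDNA clone, and clones of 1 gene are called A to D in the order of their feature numbers. The samples were kidney RNA of cattle (Bos taurus), as unamplified total RNA, called round 0, or after linear amplification for 1, 2 or 3 rounds, with replicates named 1 and K at each round. Linear amplification copies RNA into cDNA and transcribes that cDNA into many RNA copies, and the series addresses whether relative abundances last through it. Each of the 8 kidney RNAs was hybridised on 2 arrays of opposite dye against a common reference RNA, a standard of unstated make that had itself been amplified for 2 rounds per the labels. The labels do not say whether 1 and K are different animals, extractions or amplifications, so every p-value below measures only the spread between these RNAs, which may be technical.

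Chaperones bind unfolded or partly folded proteins and help them to reach or keep their shape. HSP70 proteins bind short exposed stretches in cycles of ATP use, J proteins (the DNAJ families) bring clients to them and start ATP hydrolysis, and exchange factors such as HSPA4 release the spent nucleotide. HSP90 acts later on partly folded clients, small heat shock proteins hold unfolded chains, and the chaperonins CCT in the cytosol and HSP60 with HSP10 in mitochondria enclose a chain while it folds. In the endoplasmic reticulum, lectin chaperones and protein disulfide isomerases fold secreted and membrane proteins, of which the transporting and endocytic kidney tubule makes many. The roles given here are those described for the human, mouse or yeast proteins.

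Between 14182 and 16057 of the 16896 spots of an array held a usable ratio, and duplicate spots of a feature correlated at 0.496 to 0.822 within an array. Of the 52 clones, 51 of 41 entries had a value in all 8 RNAs and were tested among the 5537 such features. DNAJB2, an HSP40 relative, was the clone without a test. Values are log2 ratios of kidney over reference, shifted so that the median over the features with a listed gene is 0 on every array. In such bulk RNA, fewer cells of a type and less RNA per cell cannot be told apart. Which dye is on top in the deposited ratios is not stated. Cy5 over Cy3 was taken as likely because the 13 features of kidney marker genes then had medians of 2.90 to 3.34 in both dye orientations at all rounds, and in the other direction every sign below would turn. Of these 13 kidney features, 12 stood above the reference at rounds 0 and 1 and 11 at rounds 2 and 3. None of the blood marker genes was tested, and at round 0 1 of 8 immune features stood above the reference and 4 below, and 3 of 10 stroma and vessel features above and 6 below. The round 0 columns also differ in how they were deposited, with 3 decimals in 100% of their cells against 83.2% to 88.2% in the amplified columns, so amplification and a difference in processing cannot be told apart in any change against round 0.

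With arrays centred, more chaperone clones stood below the reference than above it at every round. The reference had been amplified for 2 rounds, so only round 2 sets it beside kidney RNA of equal amplification. At rounds 0, 1 and 3, a difference between the RNA sources and one of amplification cannot be told apart in a ratio. At an adjusted p under 0.05 in limma (Benjamini-Hochberg over all tested features), 8 of the 51 clones were above the reference and 14 below at round 0, that is 15.7% and 27.5%, where 19.6% and 19.0% of all features were. At round 1 it was 6 above and 15 below (16.9% and 20.9% of all features), at round 2 6 and 13 (16.5% and 18.6%), and at round 3 5 and 15 (16.7% and 18.4%). This balance depends on the centring. Without it, the counts above and below were 15 and 1 at round 0, 2 and 13 at round 1, 11 and 5 at round 2, and 5 and 6 at round 3, while the median of all features moved to 0.65, -0.30, 0.59 and 0.32. Of all 5537 features, 1782 and 192 were then above and below at round 0 and 353 and 1113 at round 1. At rounds 2 and 3 it was 1489 and 239, and 885 and 337. The median centred ratio of the chaperone clones was -0.13, -0.22, -0.12 and -0.09 at rounds 0 to 3, beside -0.02, 0.04, 0.02 and 0.01 for all features.

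DNAJC12 was the chaperone clone that stood above the reference at all 4 rounds, as 6.63% of all features did. It is a J protein of the aromatic amino acid hydroxylases. Its log2 ratios, replicate 1 before replicate K here and below, were 2.16 and 1.94 at round 0, 1.85 and 1.75 at round 1, 2.24 and 1.86 at round 2, and 2.25 and 1.82 at round 3. All 8 RNAs lay between 1.75 and 2.25 with both values of round 1 below those of round 0, and the largest change against round 0 was -0.25 ± 0.25 (SE) at round 1 with an adjusted p of 0.539 in limma. The clones below the reference at all 4 rounds, a pattern of 7.89% of all features, were CCT2, CCT3, DNAJB11 and DNAJC21. Without centring none of the 4 passed at round 0, with means of -0.09, -0.52, -0.06 and -0.22 (adjusted p = 0.834, 0.173, 0.895 and 0.632 in limma). DNAJC21, a J protein of ribosome assembly, averaged -0.89, -0.55, -1.54 and -1.66 at rounds 0 to 3, and its call at round 1 held in 4 of 14 alternatives, as that of CCT3 at round 3 did in 5 of 14.

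**Figure D1:**
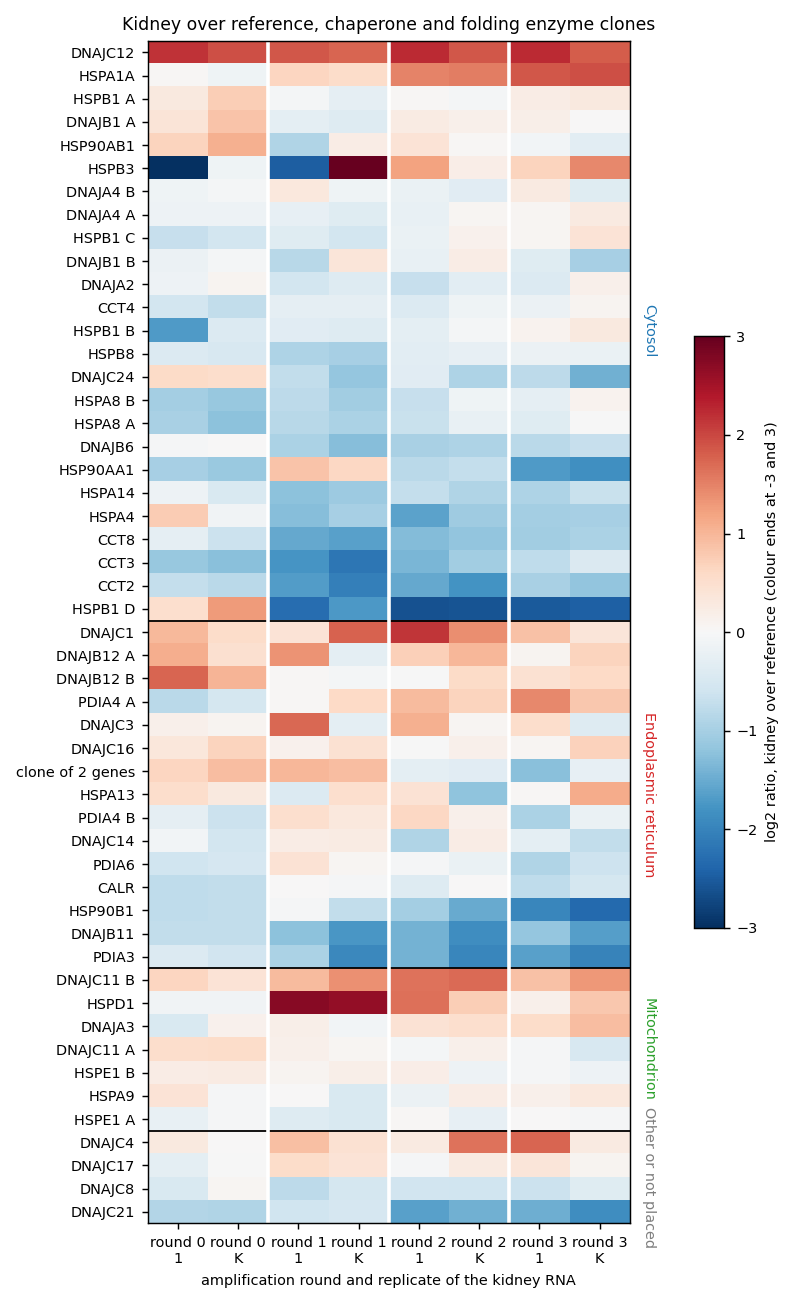
Log2 ratio of kidney over reference (colour) of the 51 tested clones (rows, by compartment and mean ratio) in each of the 8 kidney RNAs (columns). DNAJC12 is red in all 8 columns, HSPB1 D is blue in the 6 amplified RNAs, and HSPB3 changes colour between replicates.

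The chaperone ratios lay nearer 0 than at round 0 about as often as those of all features. At rounds 1, 2 and 3, 26, 25 and 23 of them had a mean nearer 0 than at round 0, which is 51%, 49% and 45.1%, beside 49.6%, 51.9% and 52.4% of all features.

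Against round 0, 2 chaperone clones rose and 8 fell at round 1, where 5.40% of all features rose and 7.87% fell. The 2 that rose were HSP90AA1 and HSPD1, and the 8 that fell were CCT2, CCT8, DNAJB1 A, DNAJB6, DNAJB12 B, DNAJC24, HSPA4 and HSPB1 D. At round 2, 3 rose (4.39% of all features did) and 3 fell (6.79%): HSPA1A, PDIA4 A and DNAJC11 B were higher, and HSPB1 D, HSPA4 and DNAJB6 lower. At round 3, 2 rose (4.57%) and 4 fell (7.04%). HSPA1A and PDIA4 A were higher, while HSPB1 D, DNAJC24, HSP90B1 and a clone listed for DNAJC10 and LOC539876 were lower. As shares of the 51 clones these are 3.92% and 15.7% at round 1, 5.88% each way at round 2, and 3.92% and 7.84% at round 3, so the share that fell at round 1 lay above its background and the other 5 lay nearer to theirs. Those gaps were not tested. The same comparison without centring gave 1 up and 19 down at round 1, where the median change of all features was -1.04, and 0 up and 1 down at rounds 2 and 3. Of all 5537 features, 39 then rose and 1829 fell at round 1, 24 and 43 at round 2, and 21 and 109 at round 3. Dividing each array by its median absolute deviation gave 4 up and 5 down at round 1 and 3 up and 6 down at rounds 2 and 3. Of all features, 286 then rose and 433 fell at round 1, 308 and 481 at round 2, and 345 and 499 at round 3. No change named here turned its sign under any alternative run. Leaving out 1 of the 8 RNAs in turn gave 2 to 6, 0 to 5 and 2 to 6 clones at rounds 1, 2 and 3. The count fell by more than 1.5 times at round 1 whichever RNA was left out, at round 2 without an RNA of round 0 or 2 (0 to 2 clones), and at round 3 without an RNA of round 0 or 3 (2 to 3 clones). Of the marker features, 0, 1 and 1 of 13 for kidney, 1, 0 and 2 of 8 for immune cells and 1, 2 and 1 of 10 for stroma and vessels rose at rounds 1, 2 and 3. In the same lists 2, 0 and 1 fell at each of the 3 rounds, and the part of these shifts in the chaperone counts was not tested.

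Between amplified rounds 1 clone passed. Round 2 against round 1 and round 3 against round 2 called 0 of the 51 in limma, as they called 0% of all features, with 8 and 5 clones at an unadjusted p under 0.05. The share of all features at that unadjusted threshold was not counted. The fit over all 16 arrays called 2 and 0 chaperone clones, beside 31 and 0 of all features. Round 3 against round 1 called HSP90AA1, where 0.289% of all features passed. An F test over the 4 rounds called 4 clones, or 7.84%, beside 7.59% of all features. They were HSP90AA1, HSPA1A, HSPB1 D and HSPD1.

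**Figure D2:**
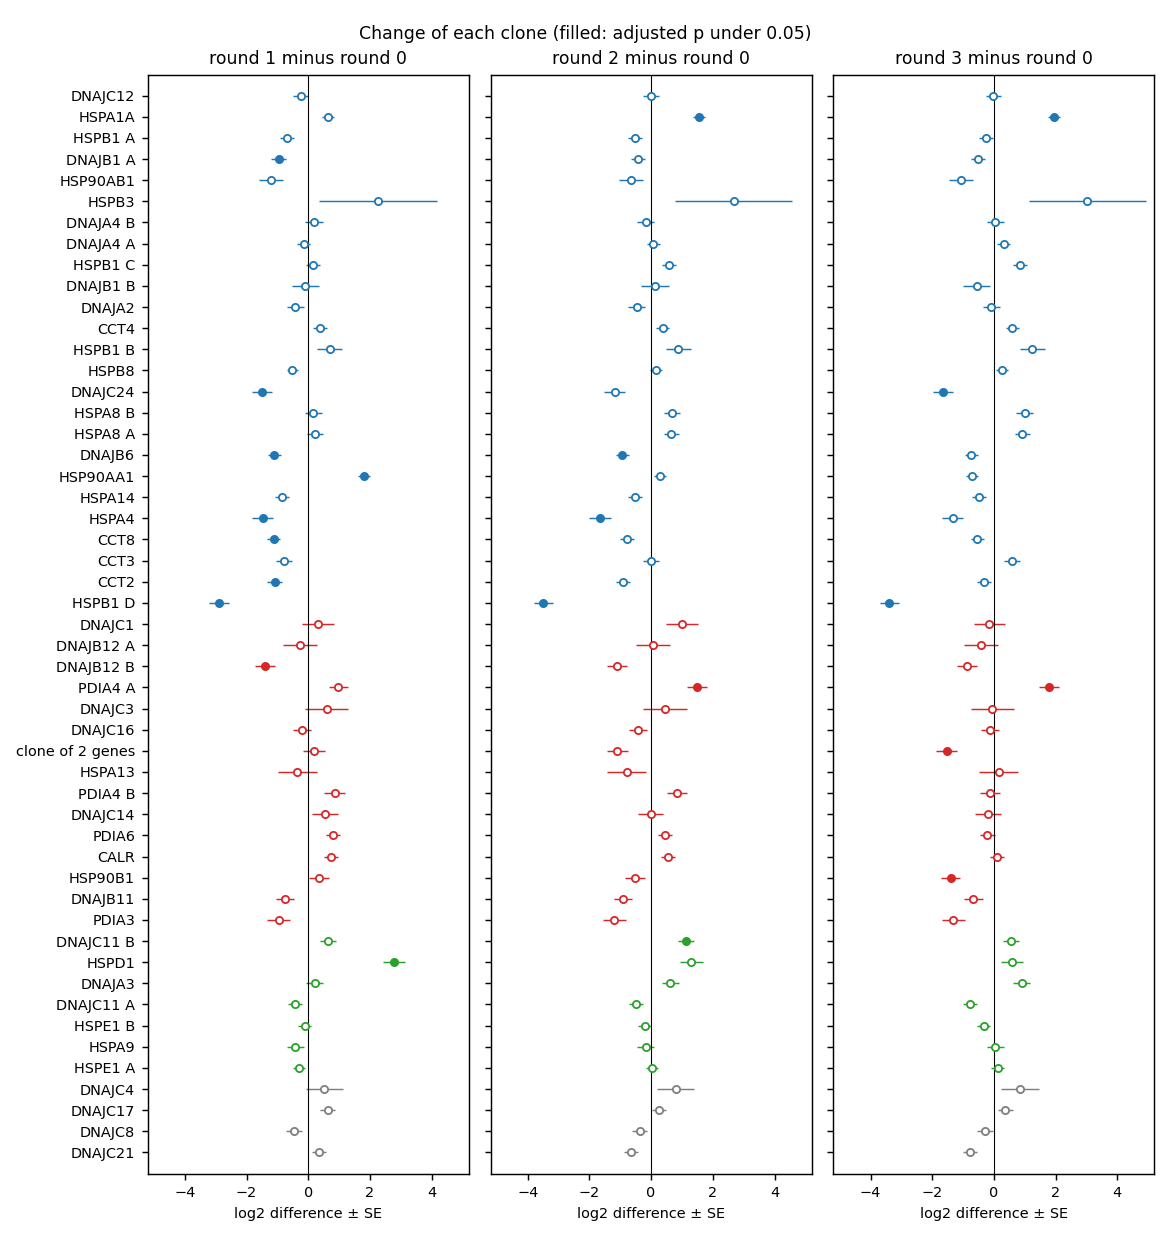
Change of each tested clone at rounds 1, 2 and 3 against round 0 (log2 difference with its SE), coloured blue for cytosol, red for endoplasmic reticulum, green for mitochondrion and grey for other or not placed. Filled points passed at an adjusted p under 0.05 in limma, and HSPB1 D lies lowest in all 3 panels, at -2.90, -3.49 and -3.39.

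In the cytosol, with 25 tested clones of 19 genes, 1 rose and 7 fell at round 1, 1 rose and 3 fell at round 2, and 1 rose and 2 fell at round 3. The median change was -0.43, -0.01 and -0.09. Of the HSP70 proteins, HSPA1A, the stress-inducible one, was higher in later rounds. Its ratios were 0.04 and -0.13 at round 0, 0.64 and 0.55 at round 1, 1.49 and 1.53 at round 2, and 1.86 and 1.92 at round 3. No RNA of rounds 1, 2 or 3 reached down to the values of round 0, and the replicates stayed within 0.17 of each other. The change was 0.64 ± 0.19 at round 1 (adjusted p = 0.0777), 1.56 ± 0.19 at round 2 (0.0105) and 1.94 ± 0.19 at round 3 (0.00646) (SE, limma), with an adjusted p of 0.015 in the F test. The calls held in 11 and 14 of 15 alternatives. The clone is listed under 2 gene identifiers of this symbol, of which 1 was found in the RefSeq gene table, and near-identical HSP70 genes can share its signal, which was not tested.

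HSPA8, the constitutive HSP70 known as HSC70, was represented by 2 clones. Clone A had ratios of -0.98 and -1.22 at round 0, -0.84 and -0.95 at round 1, -0.67 and -0.23 at round 2, and -0.36 and -0.01 at round 3. Clone B had -1.02 and -1.14 at round 0, -0.78 and -1.05 at round 1, -0.69 and -0.12 at round 2, and -0.26 and 0.11 at round 3. Both were below the reference at rounds 0 and 1 and passed no test at rounds 2 and 3. Neither passed at round 0 without centring, with means of -0.428 and -0.405 (adjusted p = 0.263 and 0.301 in limma), while both still passed at round 1. The change at round 3 was 0.92 ± 0.25 for A and 1.00 ± 0.27 for B, with adjusted p of 0.0656 and 0.0654 in limma, which missed the threshold although every round 3 value exceeded every round 0 value. HSPA14, the HSP70 of a ribosome-bound complex, was below the reference at rounds 1, 2 and 3 with means of -1.16, -0.82 and -0.79, against -0.30 at round 0. Of these calls only that of round 1 passed without centring. The means at rounds 2 and 3 were then -0.24 and -0.481 (adjusted p = 0.54 and 0.2575 in limma).

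HSPA4, a nucleotide exchange factor of HSP70, was lower after amplification. Its ratios were 0.76 and -0.10 at round 0, -1.29 and -1.01 at round 1, -1.60 and -1.06 at round 2, and -1.02 and -1.0 at round 3. All 6 amplified RNAs lay below both unamplified ones, which differed by 0.86 between replicates. The changes were -1.47 ± 0.35, -1.66 ± 0.35 and -1.34 ± 0.35 with adjusted p of 0.0424, 0.0351 and 0.0567, so limma called rounds 1 and 2. These calls held in 3 and 4 of 15 alternatives.

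Of the J proteins of the cytosol, DNAJB6, which suppresses aggregation, DNAJC24, which serves diphthamide synthesis, and DNAJB1, the classic HSP40, gave calls. DNAJB6 had ratios of -0.03 and 0.00 at round 0, -0.95 and -1.29 at round 1, -0.96 and -0.93 at round 2, and -0.81 and -0.69 at round 3. All amplified values were below both at round 0. It fell at rounds 1 and 2, with changes of -1.10 ± 0.21 and -0.93 ± 0.21 (adjusted p = 0.0255 and 0.0395 in limma, held in 10 and 5 of 15 alternatives), and the difference of -0.74 ± 0.21 at round 3 had an adjusted p of 0.0692. DNAJC24 had 0.57 and 0.53 at round 0, -0.74 and -1.16 at round 1, -0.35 and -0.92 at round 2, and -0.78 and -1.45 at round 3. It was above 0 in both unamplified RNAs and below 0 in every amplified one. It fell at rounds 1 and 3, with changes of -1.50 ± 0.33 and -1.66 ± 0.33 (adjusted p = 0.0363 and 0.0304 in limma), which held in 10 and 9 of 15 alternatives.

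DNAJB1 had 2 clones. Clone A had 0.39 and 0.86 at round 0, -0.29 and -0.39 at round 1, 0.24 and 0.15 at round 2, and 0.19 and 0.02 at round 3. Its fall of -0.97 ± 0.23 at round 1 had an adjusted p of 0.0438 in limma and held in 4 of 15 alternatives. Clone B had -0.19 and -0.07 at round 0, -0.83 and 0.37 at round 1, -0.23 and 0.22 at round 2, and -0.36 and -1.0 at round 3, with replicates on either side of 0 at rounds 1 and 2, and its change at round 1 was -0.10 ± 0.44 (adjusted p = 0.891). The 2 clones of DNAJA4, another partner of HSC70, stayed near 0. Clone A had -0.16 and -0.14 at round 0, -0.25 and -0.36 at round 1, -0.23 and 0.07 at round 2, and 0.06 and 0.27 at round 3. Clone B had -0.12 and -0.07 at round 0, 0.31 and -0.14 at round 1, -0.20 and -0.33 at round 2, and 0.27 and -0.36 at round 3. Neither passed a test against the reference or against round 0. DNAJA2 averaged between -0.50 and -0.04 over the rounds and passed none either. DNAJB2, not tested, had -1.94 and -1.87 at round 0, 0.02 in replicate K at round 1, 1.08 and -2.49 at round 2, and 0.16 in replicate 1 at round 3. Its replicates at round 2 lay on opposite sides of 0.

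With arrays centred, HSP90AA1, the inducible HSP90 of the cytosol, stood above the reference at round 1 and below it at rounds 0, 2 and 3. Its ratios were -1.01 and -1.11 at round 0, 0.87 and 0.62 at round 1, -0.82 and -0.72 at round 2, and -1.70 and -1.84 at round 3. As averages of the dye orientations, both round 1 RNAs were above 0 and all 6 others below it, and the round 3 pair lay lowest. At round 1, replicate 1 had 1.326 with kidney in Cy5 and 0.406 with kidney in Cy3, but replicate K had 1.531 and -0.3. The averaged ratio of HSP90AA1 rose at round 1 by 1.80 ± 0.20 (adjusted p = 0.00756 in limma, held in 13 of 15 alternatives). At rounds 2 and 3 the change was 0.29 ± 0.20 and -0.71 ± 0.20, with adjusted p of 0.374 and 0.0701. Round 3 minus round 1 was -2.51 ± 0.20 (adjusted p = 0.0145, held in 5 of 15 alternatives), and the F test gave an adjusted p of 0.0122. HSP90AB1, the constitutive form, was measured on 15 of 16 arrays and had changes of -1.21 ± 0.40, -0.65 ± 0.40 and -1.07 ± 0.40 at rounds 1, 2 and 3. Its adjusted p were 0.0945, 0.311 and 0.126, so none passed. The difference between the 2 genes at round 1 was not tested, and nor was binding of the cDNA of one to the clone of the other.

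There were 4 subunits of CCT, the ring that folds actin and tubulin, were on the array, and 31 of their 32 values lay below 0. CCT2 (beta) had ratios of -0.72 and -0.81 at round 0, -1.67 and -2.04 at round 1, -1.55 and -1.79 at round 2, and -0.97 and -1.19 at round 3. CCT3 (gamma) had -1.13 and -1.25 at round 0, -1.77 and -2.17 at round 1, -1.37 and -1.04 at round 2, and -0.77 and -0.42 at round 3. CCT8 (theta) had -0.27 and -0.64 at round 0, -1.53 and -1.63 at round 1, -1.30 and -1.18 at round 2, and -1.04 and -0.95 at round 3. All 3 had their lowest mean at round 1, and for CCT3 and CCT8 the RNAs of that round lay below all others, while those of CCT2 overlapped round 2. CCT2 and CCT8 fell at round 1, with changes of -1.09 ± 0.23 and -1.13 ± 0.21 (adjusted p = 0.0336 and 0.0261 in limma, held in 5 and 8 of 15 alternatives), and CCT3 had -0.78 ± 0.25 (0.0935). At round 3 the differences from round 0 were -0.31 ± 0.23, -0.54 ± 0.21 and, for CCT3, 0.59 ± 0.25, and none passed. CCT4 (delta) had a change of 0.38 ± 0.22 at round 1 (adjusted p = 0.27). Its mean of -0.65 at round 0 was below the reference, but became 0.03 without centring.

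HSPB1, the small heat shock protein HSP27, gave the largest change among the chaperones, and it came from 1 of its 4 clones. Clone D had ratios of 0.51 and 1.27 at round 0, -2.28 and -1.73 at round 1, -2.61 and -2.58 at round 2, and -2.53 and -2.46 at round 3. Both unamplified RNAs were above 0 and the 6 amplified ones below -1.7. It fell, with log2 changes of -2.90 ± 0.32, -3.49 ± 0.32 and -3.39 ± 0.32 at rounds 1, 2 and 3 (adjusted p = 0.00756, 0.00606 and 0.00576 in limma), and passed in 14, 14 and 15 of 15 alternatives.

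No change against round 0 passed for the other HSPB1 clones. Clone A had 0.30 and 0.74 at round 0, -0.07 and -0.28 at round 1, 0.03 and -0.05 at round 2, and 0.22 and 0.29 at round 3. Clone B had -1.69 and -0.42 at round 0, -0.33 and -0.39 at round 1, -0.30 and -0.06 at round 2, and 0.09 and 0.29 at round 3. Clone C had -0.68 and -0.56 at round 0, -0.37 and -0.56 at round 1, -0.20 and 0.12 at round 2, and 0.06 and 0.40 at round 3. At rounds 1, 2 and 3 these 3 clones lay between -0.56 and 0.40. All amplified values of A were below both at round 0, with changes of -0.69 ± 0.23, -0.53 ± 0.23 and -0.27 ± 0.23 (adjusted p = 0.0969, 0.174 and 0.467 in limma). These averages join opposite signs. With kidney in Cy5 the changes of A were 0.03, 0.16 and 0.35, and with kidney in Cy3 -1.41, -1.22 and -0.88. The amplified values of B were above both at round 0, while those of C overlapped round 0 at round 1. At round 0 they did not agree among themselves, since A was above the reference and B and C below it; the mean of C, -0.62, became 0.055 without centring. Clone B had 1.27 between its replicates at round 0. HSPB8, a partner of the cochaperone BAG3, had replicates within 0.08 of each other at every round and the smallest residual SD of the 51 clones, 0.05. It averaged -0.44 at round 0 (0.24 without centring) and -0.96 at round 1, both below the reference when centred, and its change at round 1 was -0.52 ± 0.19 (adjusted p = 0.114). HSPB3, known from muscle, had the largest, 2.39, with values from -3.81 to 3.06 on 12 arrays.

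In the endoplasmic reticulum, with 15 tested clones of 13 entries, 1 fell at round 1, 1 rose at round 2, and 1 rose and 2 fell at round 3, and no others passed. The median ratio was -0.32, 0.25, -0.12 and -0.51 at rounds 0 to 3. HSP90B1 (GRP94), the HSP90 of this compartment, had ratios of -0.75 and -0.74 at round 0, -0.04 and -0.74 at round 1, -1.01 and -1.52 at round 2, and -1.97 and -2.34 at round 3. Both round 3 values were below all 6 others. It fell at round 3 by 1.41 ± 0.32 (adjusted p = 0.041 in limma), a call that held in 6 of 15 alternatives, and differed by 0.35 ± 0.32 and -0.52 ± 0.32 at rounds 1 and 2 with adjusted p of 0.486 and 0.319.

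The disulfide isomerases did not move as 1 group. PDIA4 A (ERp72), measured on 15 of 16 arrays, had -0.81 and -0.52 at round 0, 0.03 and 0.59 at round 1, 0.96 and 0.68 at round 2, and 1.43 and 0.81 at round 3. As averages of the dye orientations, both unamplified values were below 0 and all amplified ones above it. With kidney in Cy5, replicate K had -0.676, -0.584, -0.053 and -0.238 at rounds 0 to 3. With kidney in Cy3 it had -0.367, 1.758, 1.41 and 1.863. Replicate 1 had -0.244 and 1.377 with kidney in Cy5 at rounds 1 and 2. Its round 3 value, 1.43, came from the Cy3 array alone. The averaged ratio of PDIA4 A rose at rounds 2 and 3, by 1.48 ± 0.32 and 1.79 ± 0.32 (adjusted p = 0.0361 and 0.0246 in limma, held in 6 and 8 of 14 alternatives). The changes were 1.499 and 0.599 with kidney in Cy5, and 1.468 and 2.14 with kidney in Cy3. PDIA4 B had -0.26 and -0.64 at round 0, 0.49 and 0.31 at round 1, 0.63 and 0.16 at round 2, and -0.95 and -0.21 at round 3, and its changes of 0.85 ± 0.33, 0.85 ± 0.33 and -0.13 ± 0.33 did not pass. PDIA3 (ERp57), the partner of the lectin chaperones, had -0.41 and -0.56 at round 0, -0.96 and -1.93 at round 1, -1.42 and -1.95 at round 2, and -1.62 and -1.99 at round 3. It was below the reference at rounds 1, 2 and 3, and its change of -1.32 ± 0.38 at round 3 had an adjusted p of 0.0698. PDIA6 (P5) was below the reference at rounds 0 and 3, with means of -0.56 (0.12 without centring) and -0.77, and its change of 0.81 ± 0.23 at round 1 missed the threshold (0.0693). CALR, a lectin chaperone that binds calcium, averaged -0.74, -0.01, -0.19 and -0.64 and passed at no round against round 0.

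Among J proteins of this compartment, DNAJB11 (ERdj3), a partner of BiP, had -0.75 and -0.73 at round 0, -1.23 and -1.74 at round 1, -1.43 and -1.86 at round 2, and -1.16 and -1.65 at round 3. It lay below 0 in all 8 RNAs, and no change against round 0 passed in limma (adjusted p = 0.0976 to 0.182). DNAJB12, a membrane J protein, had 2 clones. Clone A had 1.10 and 0.48 at round 0, 1.35 and -0.30 at round 1, 0.72 and 0.99 at round 2, and 0.08 and 0.67 at round 3. Clone B had 1.75 and 1.03 at round 0, 0.03 and -0.06 at round 1, -0.01 and 0.58 at round 2, and 0.46 and 0.59 at round 3. As averages of the dye orientations, only for B did both unamplified values exceed the 6 amplified ones. The averaged ratio of B fell at round 1 by 1.40 ± 0.32 (adjusted p = 0.0402 in limma, held in 3 of 15 alternatives). Its change was -0.394 with kidney in Cy5 and -2.404 with kidney in Cy3. With kidney in Cy5, replicate K of B had 0.368, 0.478, 0.808 and 0.821 at rounds 0 to 3. Replicate 1 had 1.065, 0.167, -0.468 and 0.629. The clone listed for DNAJC10, a J protein with disulfide reductase activity, and for LOC539876 cannot be given to either. It had 0.64 and 0.92 at round 0, 1.00 and 0.93 at round 1, -0.28 and -0.34 at round 2, and -1.25 and -0.24 at round 3. Its values at rounds 2 and 3 were below 0 and all others above it, and it fell at round 3 by 1.53 ± 0.35 (adjusted p = 0.0398, held in 5 of 15 alternatives). DNAJC1 (ERdj1), which sits at ribosomes on the membrane, had the highest mean ratio over the rounds in this compartment, with 0.98 and 0.55 at round 0, 0.40 and 1.76 at round 1, 2.14 and 1.39 at round 2, and 0.89 and 0.35 at round 3. Its replicates differed by 1.36 at round 1, and its largest change, 1.00 ± 0.51 at round 2, had an adjusted p of 0.236. DNAJC3, DNAJC14, DNAJC16 and HSPA13 passed no test, and their round means lay between -0.51 and 0.71.

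In mitochondria, with 7 tested clones of 5 genes, 1 clone rose at round 1 and 1 at round 2, and no other change passed. HSPD1 (HSP60), the barrel of the mitochondrial chaperonin, had -0.10 and -0.11 at round 0, 2.73 and 2.63 at round 1, 1.66 and 0.75 at round 2, and 0.16 and 0.82 at round 3. As averages of the dye orientations, both round 1 values were above every other, and both round 0 values were the lowest. At round 1, replicate 1 had 2.81 with kidney in Cy5 and 2.65 with kidney in Cy3, but replicate K had 0.65 and 4.60. With kidney in Cy5, replicate K had 0.016, 0.654, -0.175 and -0.331 at rounds 0 to 3. The averaged change of HSPD1 was 2.78 ± 0.36 at round 1 (adjusted p = 0.0109 in limma), 1.31 ± 0.36 at round 2 (0.068) and 0.59 ± 0.36 at round 3 (0.315), with an adjusted p of 0.0278 in the F test. The call at round 1 held in 12 of 15 alternatives. Duplicate spots of this clone differed by 0.85 on average, beside a median of 0.33 over the chaperone clones.

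HSPE1 (HSP10), the lid of the same chaperonin, did not show such a peak. Clone A had -0.23 and -0.03 at round 0, -0.40 and -0.47 at round 1, 0.03 and -0.24 at round 2, and 0.02 and -0.04 at round 3. Clone B had 0.21 and 0.26 at round 0, 0.08 and 0.18 at round 1, 0.19 and -0.15 at round 2, and -0.03 and -0.15 at round 3. All 16 values lay between -0.47 and 0.26, and the changes at round 1 were -0.30 ± 0.21 and -0.11 ± 0.21 (adjusted p = 0.349 and 0.759). HSPD1 and HSPE1 are neighbours in the RefSeq table for cattle (assembly ARS-UCD2.0), with 0 coding genes between them. The difference between the genes was not tested.

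HSPA9 (mortalin), the HSP70 of mitochondria, had 0.41 and -0.02 at round 0, 0.02 and -0.46 at round 1, -0.18 and 0.21 at round 2, and 0.15 and 0.33 at round 3, and its replicates lay on either side of 0 at rounds 0, 1 and 2. DNAJA3 (TID1), its J protein, had -0.45 and 0.13 at round 0, 0.17 and -0.08 at round 1, 0.43 and 0.50 at round 2, and 0.54 and 0.93 at round 3. DNAJA3 stood above the reference at round 3 and passed at no other round, and its change of 0.90 ± 0.28 had an adjusted p of 0.0831. DNAJC11, which is bound to the complex that shapes the inner membrane, had 2 clones. Clone A had 0.52 and 0.54 at round 0, 0.16 and 0.06 at round 1, -0.06 and 0.14 at round 2, and -0.04 and -0.48 at round 3. Clone B had 0.64 and 0.41 at round 0, 0.95 and 1.37 at round 1, 1.64 and 1.69 at round 2, and 0.87 and 1.30 at round 3. The values of A and B overlapped at round 0 and not at rounds 1, 2 and 3. Clone B rose at round 2 by 1.14 ± 0.26 (adjusted p = 0.0399, held in 5 of 15 alternatives), where A had -0.49 ± 0.23 (0.205).

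Of the 4 clones of other or unplaced J proteins, DNAJC4, DNAJC8, DNAJC17 and DNAJC21, none passed against round 0, with adjusted p of 0.0721 and above in limma. Their changes ran from -0.77 to 0.85. DNAJC8, known from the spliceosome, was below the reference at rounds 1 and 2 with means of -0.66 and -0.58. These calls held in 11 and 5 of 14 alternatives. Without centring neither passed, with means of -0.99 and -0.004 (adjusted p = 0.06 and 0.994 in limma).

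**Figure D3:**
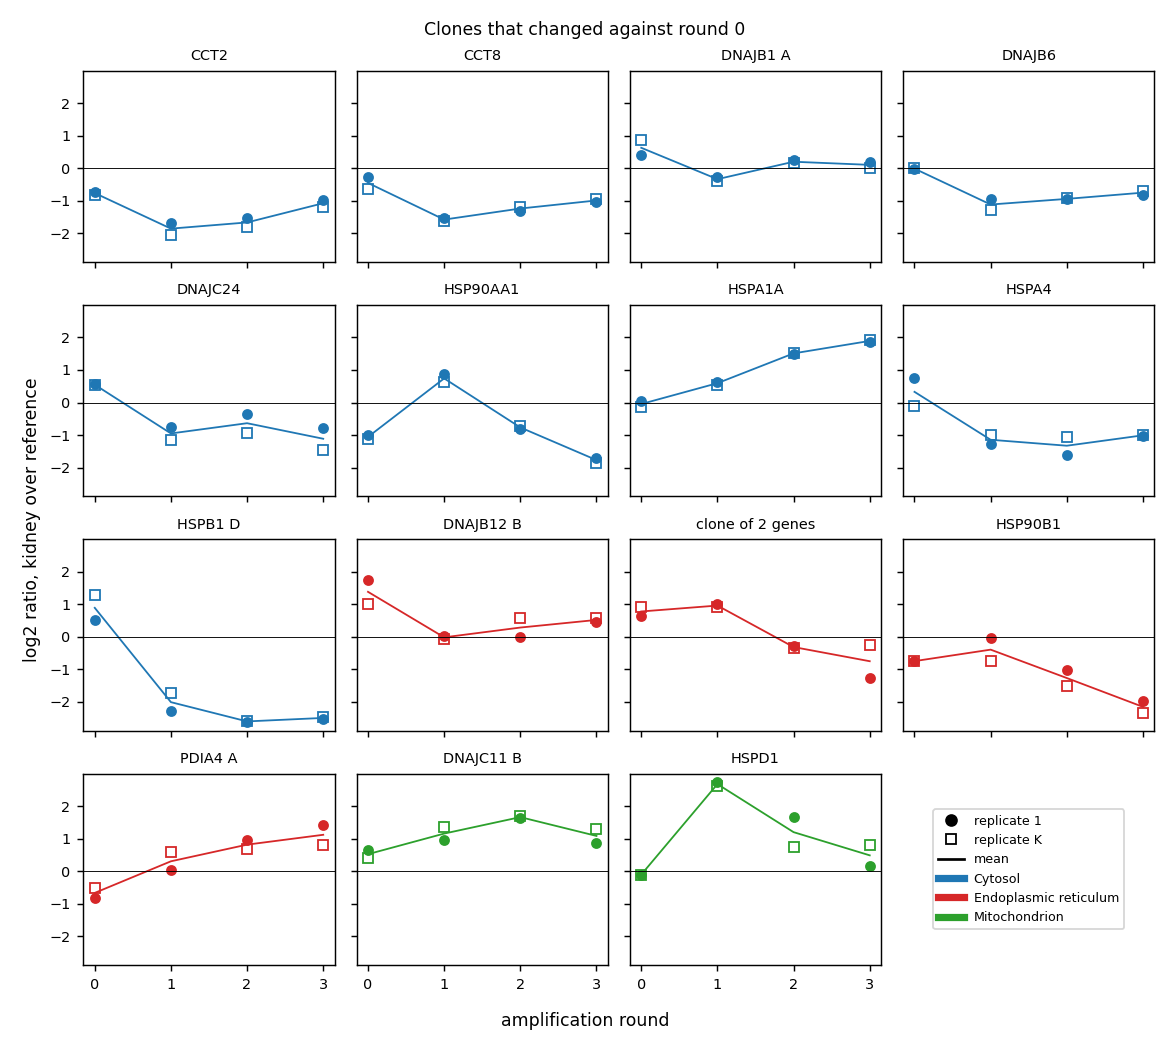
Log2 ratio of kidney over reference against amplification round for the 15 clones that changed at any round, with a filled circle for replicate 1, an open square for replicate K and a line through the means. HSPB1 D drops below -1.7 from round 1 on, HSPA1A climbs above 1.8 at round 3, and HSP90AA1 and HSPD1 peak at round 1.

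Clones of 1 chaperone gene differed by about as much as clones of 1 gene did over the array. The 8 genes with 2 or more tested clones gave 13 pairs, whose mean difference over the 4 rounds had a median size of 0.41, the same as over all 1303 such pairs of 909 genes. The difference passed in limma for 6 of the 13 pairs, where 35.5% of all pairs passed. It changed among rounds for 3 of 13, beside 5.45% of all pairs, and all 3 contain HSPB1 D, so they are not independent.

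HSPB1 A exceeded D by 1.70 ± 0.12 over the rounds, B exceeded D by 1.20 ± 0.12 and C exceeded D by 1.33 ± 0.13 (adjusted p = 0.000423, 0.00115 and 0.00124 in limma). At round 0 the order was the opposite, with A, B and C below D by 0.38, 1.95 and 1.51, and at round 3 they were above it by 2.74, 2.68 and 2.72. The adjusted p of this change among rounds were 0.0231, 0.015 and 0.0162. Clone A also exceeded B by 0.50 ± 0.12 and C by 0.37 ± 0.10 (adjusted p = 0.0249 and 0.0313, held in 7 of 13 and 8 of 14 alternatives). These differences were 1.57 and 1.14 at round 0 and no more than 0.30 at the other rounds, though the change among rounds did not pass (adjusted p = 0.108 and 0.131). Clones B and C differed by -0.13 ± 0.14 (adjusted p = 0.54).

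The clones of HSPA8 had the smallest gap of the 13 pairs in any 1 RNA, at most 0.11, and a mean difference of -0.04 ± 0.08. DNAJC11 A lay below B by 1.0 ± 0.13 (adjusted p = 0.00263), with differences of 0.00, -1.05, -1.62 and -1.35 at rounds 0 to 3, but the change among rounds missed the threshold (adjusted p = 0.137). PDIA4 A exceeded B by 0.45 ± 0.19 (adjusted p = 0.122), of which 1.70 at round 3 and -0.22 at round 0, but the change among rounds had an adjusted p of 0.188. For DNAJA4, DNAJB1, DNAJB12 and HSPE1 the mean differences were -0.01 ± 0.13, 0.41 ± 0.18, 0.09 ± 0.19 and -0.24 ± 0.08, and none passed. Of the 15 clones that changed against round 0, 5 belong to genes with another tested clone, and in none of the 5 did another clone of the gene pass in the same direction at that round. How often another clone passes likewise over the array was not counted, so this cannot be set apart from the array as a whole.

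**Figure D4:**
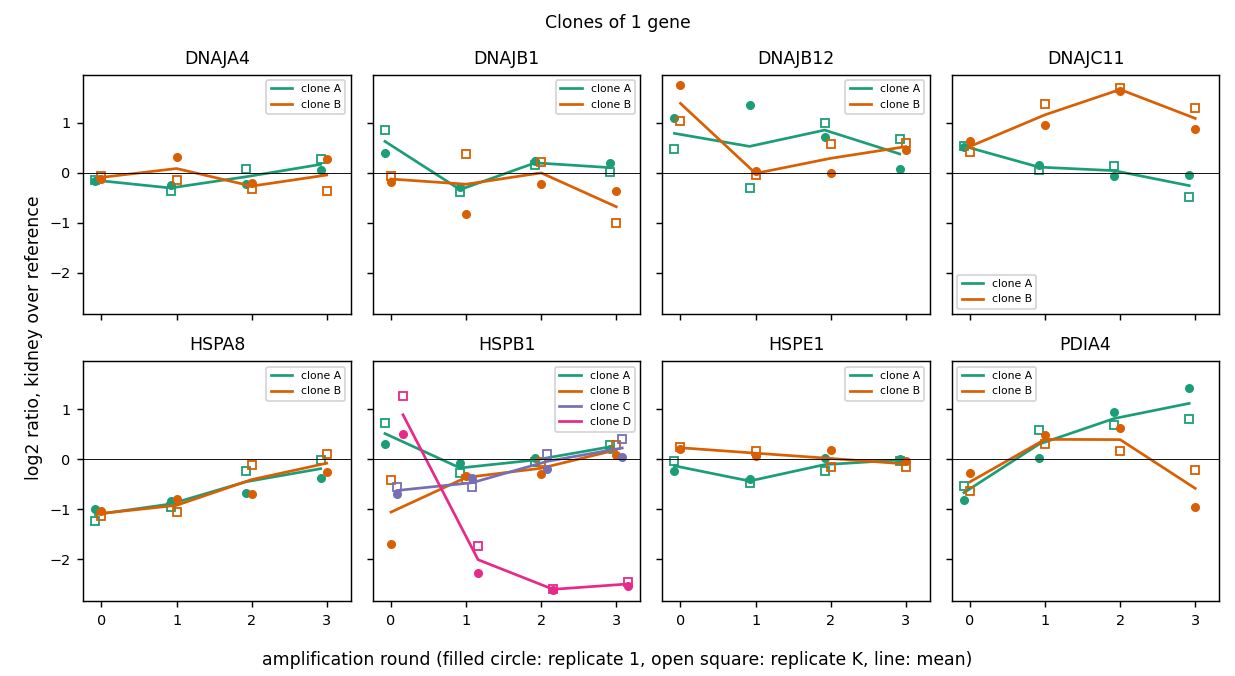
Log2 ratio of kidney over reference against round for the clones of the 8 genes with several clones (filled circle replicate 1, open square replicate K, line the mean). The HSPA8 clones coincide, HSPB1 D leaves the other 3 clones at round 1, and DNAJC11 A lies below B at rounds 1, 2 and 3, a course that did not pass the F test of the difference.

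Each RNA was measured in both dye orientations, and the 2 arrays of an RNA differed for a chaperone clone by a median of 0.71, as for all features (0.70). The change against round 0 had 1 sign in both orientations for 32 of 50 clones at round 1 (64%), 34 of 51 at round 2 (66.7%) and 33 of 51 at round 3 (64.7%), beside 59%, 62.2% and 61.8% of all features. All 10, 6 and 6 called changes had 1 sign in both, which is no separate check, since the calls rest on their average. The share among all called features of the array was not counted. The change of HSPB1 D at round 2 was -3.20 with kidney in Cy5 and -3.78 with kidney in Cy3. That of HSPD1 at round 1 was 1.79 with kidney in Cy5 and 3.78 with kidney in Cy3. For HSPE1 A the round 1 change was 0.48 with kidney in Cy5 and -1.09 with kidney in Cy3, and for HSPE1 B it was 0.54 with kidney in Cy5 and -0.75 with kidney in Cy3, so their averages near 0 join opposite signs. Residual SD between replicates had a median of 0.26 over the chaperone clones, beside 0.32 over all features.

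**Figure D5:**
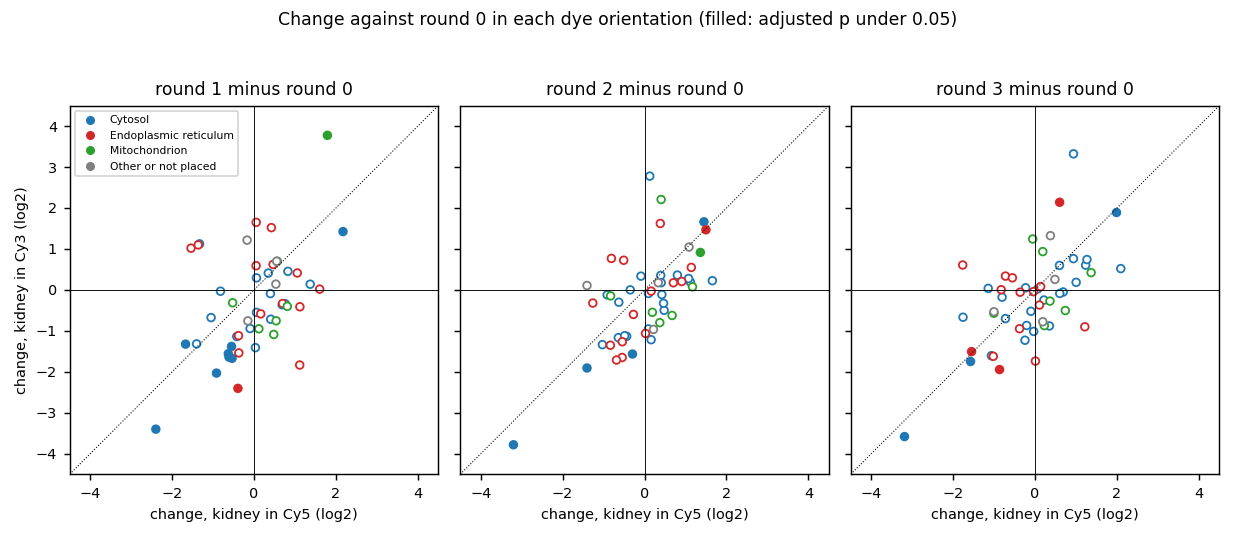
Change against round 0 with kidney in Cy5 (x axis) and in Cy3 (y axis), both log2, for each clone at rounds 1, 2 and 3, coloured by compartment, filled where the averaged change passed. The dotted line marks equality, and every filled point lies in the lower left or upper right quadrant. The calls rest on the average of both orientations, which favours those quadrants.

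Genes that work beside these chaperones were read from lists, and a clone is counted as called at the same threshold. The background for the counts of each list is again 5.40%, 4.39% and 4.57% of all features rising at rounds 1, 2 and 3. For falling it is 7.87%, 6.79% and 7.04%, and gaps from it were not tested. Of 9 clones of cochaperones and regulators of HSP70 and HSP90, 2, 1 and 1 fell at rounds 1, 2 and 3, and no other passed. HSF1, the transcription factor of heat shock genes, fell, with changes of -1.30, -1.25 and -0.97 (adjusted p = 0.0176, 0.0199 and 0.0357 in limma). PPID, an HSP90-bound cyclophilin, fell by 0.97 at round 1 (0.0405). Of 9 clones of prefoldin and CCT cofactors, PFDN4 rose, by 2.03 at round 1 and 1.27 at round 3 (0.015 and 0.0454), and no other passed.

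Of 24 clones of other folding and quality control genes of the endoplasmic reticulum, 2, 0 and 3 rose and 2, 2 and 2 fell. TXNDC11, a thioredoxin domain protein, fell at all 3 rounds, with changes of -1.75, -1.48 and -1.41. CRELD2 fell at all 3 as well, with -0.96, -1.0 and -1.07. DERL1, a channel subunit of the degradation route, rose by 2.37 at round 1 and did not pass at rounds 2 and 3. VCP, the ATPase that pulls proteins out of the membrane, had 3 clones, of which 1 rose at round 1 by 1.06 and the other 2 at round 3 by 0.95 and 0.94. Of 10 clones of the unfolded protein response, 1 rose at each round and no other passed. They were PPP1R15B by 1.93 at round 1, TRIB3 by 3.79 at round 2 and DDIT3 (CHOP) by 1.09 at round 3 (adjusted p = 0.0141, 0.0232 and 0.031). The other clones of PPP1R15B and TRIB3 had 0.61 and 1.00 and did not pass.

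Of 10 clones of mitochondrial folding and proteases, 2, 1 and 1 rose and 2, 1 and 1 fell. TRAP1, the HSP90 of mitochondria, fell, with changes of -2.35, -2.20 and -2.12 (adjusted p = 0.00756, 0.00974 and 0.00842 in limma). Of the clones of the protease LONP1, 1 rose by 1.41, 1.45 and 1.29 (0.0132, 0.0136 and 0.018), and the other did not pass. YME1L1, a protease of the inner membrane, fell by 1.01 at round 1. The 2 clones of PPIF, the matrix cyclophilin, had 1.01, which passed, and -0.88, which did not. Of 6 clones of cytosolic prolyl isomerases, both of FKBP1A rose, by 2.05 and 1.78 at round 1 and 1.68 and 1.49 at round 2, and no other passed.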

How the data were processed

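The 16 columns of the series' value table hold, as deposited by the authors, a log2 ratio of the dyes for each spot, and the sources used here name no normalization for it. In the column of the round 1 replicate 1 array with kidney in Cy3, the deposited values also hold 52 stray whole numbers that are no ratios, so its unit as a whole was recorded as a score. Values beyond 10 in size, those numbers and a code for an undefined ratio (22 to 172 spots an array) were treated as missing. No spot intensities were used here. Ratios of arrays with kidney in Cy3 had their sign turned, duplicate spots were averaged, each array was centred, and both dye orientations were averaged to 8 RNAs. The dye swaps of an RNA correlated at -0.601 to -0.195 before the sign was turned. All 5537 features of listed genes with a value in every RNA were fitted in limma 3.58.1 (R 4.3.3), with a mean for each round, 4 residual and 2.4 prior degrees of freedom, and Benjamini-Hochberg adjustment over all of them. Clone pairs were fitted likewise over 1303 pairs. The scripts were tested on simulated data.

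The number and spread of arrays limit the precision. Clones were named from the platform annotation, where a gene's clones are separate features. Members and lists were chosen with earlier results of these data known. Values in every RNA are given for clones passing the F test or a contrast against round 0, the 3 highest and 3 lowest by mean ratio in the cytosol, the endoplasmic reticulum and mitochondria, and genes with several clones. Up to 4 called genes of each further list are named, by size of change. Alternatives covered centring, scaling, the 16 arrays with a dye term, a replicate block, 1 array or RNA left out, features on all 16 arrays and fits of the rounds compared alone. Residuals of same-numbered RNAs correlated at -0.05 to 0.17 between rounds, so the numbers were not taken as pairs. Clone and promoter sequences were not analysed here.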

Additional observations from a re-analysis of the deposited data

How the results depend on the processing

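Precision was limited by 2 RNAs a round, and low signal over background could not be judged from ratios alone. No called change of a chaperone clone reversed under the alternatives run. Changes of genes from the further lists were not run under them. Without centring, HSPB8, HSPB1 C, CCT4 and PDIA6 turned to 0.24, 0.055, 0.03 and 0.12 at round 0, since the median of all features moved. The count of chaperone clones differing from the reference at round 3 was then 11 instead of 20, and those changed against round 0 were 20, 1 and 1 at rounds 1, 2 and 3, instead of 10, 6 and 6. Over all features these counts were 1222 instead of 1942, and 1868, 67 and 130 instead of 735, 619 and 643. For the chaperone clones, round 3 against round 1 gave 0 instead of 1, and the F test 2 instead of 4, or 7 with scaled arrays. The 16 arrays with a dye term gave 17, 12 and 17 changes against round 0, 2 for round 2 against round 1, 8 for round 3 against round 1, 20 by the F test and 6 clone pairs instead of 3. The block of replicate numbers gave 7, 3 and 7 changes against round 0 and 3 by the F test. Leaving out the round 1 replicate 1 array with kidney in Cy3 gave 13 clones differing at round 0 instead of 22, and 4 and 3 changes at rounds 1 and 2. Features on all 16 arrays gave 10 and 14 changes at rounds 2 and 3, 8 for round 3 against round 1 and 14 by the F test. Fits of the rounds compared alone gave 0, 2 and 2 changes, and 0 for round 3 against round 1. Leaving out 1 RNA in turn gave 5 to 20, 13 to 21, 13 to 19 and 11 to 20 clones differing from the reference at rounds 0 to 3, and the lowest were without a round 0 RNA (6 without replicate 1 and 5 without K) at round 0. It gave 2 to 6, 0 to 5 and 2 to 6 changes against round 0. Round 3 against round 1 gave 0 throughout, the F test 0 to 4 and the clone pairs 4 to 6 by mean difference and 0 to 3 by the F test. Both the F test without either round 0 RNA and round 2 without its replicate 1 gave 0. Clone pairs by the F test gave 1 and 0 without replicates 1 and K of round 0 or of round 2, and 1 without either of round 3. The lone RNA of a round was assumed to vary like the others. The cause of these moves was not tested, except that leaving out data leaves fewer degrees of freedom or features.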
